A study of Homo sapiens with 6 samples.

Results

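Genomic sites at which glucocorticoid receptor (GR) peaks were called in cells given no hormone were taken from the 6 vehicle peak lists of a GR ChIP-seq series. Vehicle peaks that overlapped by at least 1 bp were merged, and all merged sites were kept, which gave 602 sites from 771 vehicle peaks. Each site was then classed by the number of vehicle lists with a peak there and by whether any of the 6 dexamethasone lists had an overlapping peak. These 602 are 602 of the 43893 sites obtained by merging all 12 lists of the series. The members were thus chosen by the called vehicle peaks themselves, and classed by overlaps among the same lists. Counts of those overlaps describe the choice and are given without a test.

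GR is a steroid hormone receptor and a transcription factor. Without hormone it is held largely in the cytoplasm by chaperones, and binding of a glucocorticoid releases it to the nucleus, where it binds DNA directly or through other factors. The mineralocorticoid receptor (MR) is a close relative that binds many of the same hormones and similar DNA elements. U-2OS osteosarcoma cells are a common host for studying introduced steroid receptors.

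Both lines are stable lines made from U-2OS human osteosarcoma cells, each represented once: the GR cell, and the MR/GR cell, in which MR is co-expressed with GR. The treatment lasted 2 hr and was DMSO, the vehicle, or 100 nM of the synthetic glucocorticoid dexamethasone, and GR was then immunoprecipitated from fixed chromatin. A line under a given treatment was 1 deposited sample with 3 numbered peak lists, so 4 samples gave the 12 lists, and the 2 input samples were not analysed here as peak lists. The label of the GR-cell input gives dexamethasone and that of the MR/GR-cell input vehicle, and which input each list was called against is not stated. Whether lists of a sample came from separate cultures is not stated in the labels, so the spread between lists may be technical. The lists carry positions alone, with 1 peak width per list for all but 1 peak, and read depth is unknown, so a site without a peak may be unbound or may lie under the calling threshold. Vehicle lists 1 to 3 held 122, 238 and 228 peaks in the GR cell, and 132, 11 and 40 in the other line, against 3713 to 37650 in the dexamethasone lists. The sites covered 207.6 kb in all and were 282 to 806 bp wide (median 350 bp), and 13 were over 500 bp wide. Neither genes nor base sequences are given for any site, because the positions are in the hg19 build and no annotation or genome of that build was used here.

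Most sites were called in a single vehicle list. Of the 602 sites, 486 were in 1 vehicle list, 79 in 2, 27 in 3, 5 in 4, 4 in 5 and 1 in all 6. Sites in 2 or more vehicle lists therefore numbered 116, or 19.3%. That number was 78, 77 and 66 without GR-cell vehicle list 1, 2 or 3. By line, 442 sites had vehicle peaks in the GR cell alone, 128 in the MR/GR cell alone and 32 in both. The 32 sites of both lines were 6.75% of the 474 vehicle sites of the GR cell and 20% of the 160 vehicle sites of the MR/GR cell.

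Between 15.2% and 53.3% of the peaks of a vehicle list recurred in another vehicle list of its line. In the GR cell, 53.3% of the peaks of list 1, 26.5% of list 2 and 33.3% of list 3 met a peak of another GR-cell vehicle list (37.7% ± 13.9, mean ± SD, n = 3 lists). In the MR/GR cell these shares were 15.2%, 27.3% and 50% (30.8% ± 17.7, n = 3 lists), the last 2 resting on lists of 11 and 40 peaks. The shortest GR-cell list and the MR/GR-cell list of 40 peaks thus had the highest shares. Such shares depend in part on how many peaks the other lists of the line hold as targets. MR/GR-cell list 1, with the lowest share, had only the lists of 11 and 40 peaks to meet. Leaving out a list also removes its peaks as targets. The GR-cell mean was 21.0% when its list 1 was left out and 23.6% when its list 3 was. The MR/GR-cell mean was 17.4% without its list 1 and 14.8% without its list 3.

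Between lines, 13.1%, 9.66% and 8.33% of the peaks of GR-cell lists 1 to 3 met an MR/GR-cell vehicle peak (10.4% ± 2.47, n = 3 lists). In the other direction the shares were 21.2%, 45.5% and 25% (30.6% ± 13.0, n = 3 lists), with 5 of 11 peaks behind the highest. These shares differ in part by construction, since the target lists of the GR cell held more peaks. Without MR/GR-cell list 1 the first mean was 3.52%, and without GR-cell list 2 the second was 14.7%.

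Of the 602 sites, 422 had a peak in at least 1 dexamethasone list, a share of 70.1% (Wilson 95% interval 66.3 to 73.6), and 180 had none. Intervals on shares of sites cover counting error only. Over all 12 lists 99.6% of sites had a dexamethasone peak, a share set by the far longer dexamethasone lists, and in reverse 0.965% of the 43713 dexamethasone sites had a vehicle peak. The share was higher at sites of more vehicle lists. It was 64.2% (59.8 to 68.3) where 1 vehicle list had a peak, with 312 of 486 sites, and 92.4% (84.4 to 96.5) where 2 had one, with 73 of 79 sites. With 3 or more vehicle lists it was 37 of 37 sites (interval from 90.6%). The same order was seen within each line. Sites of the GR cell alone had a dexamethasone peak in 66.4% of cases when in 1 list, 91.4% when in 2 and 15 of 15 when in 3. Sites of the MR/GR cell alone had one in 57.3% of cases when in 1 list and in 11 of 11 when in 2 or 3.

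**Figure D1:**
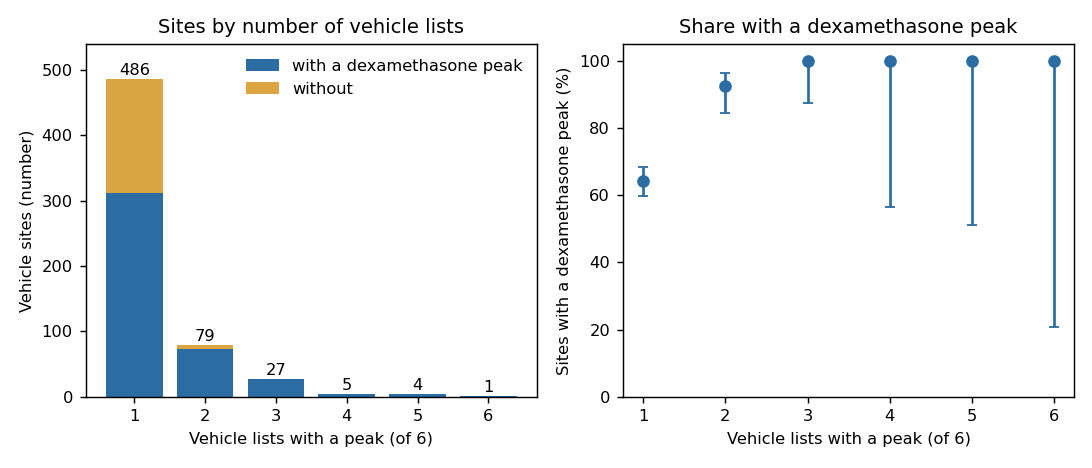
Left, number of vehicle sites (y axis) by the number of vehicle lists with a peak (x axis), split into sites with and without a peak in any dexamethasone list. Right, the share of sites with a dexamethasone peak, with Wilson 95% intervals as bars. Of 486 sites in 1 vehicle list 174 had no dexamethasone peak, against 6 of 79 in 2 lists and none of 37 in 3 or more.

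Sites in more vehicle lists were also in more dexamethasone lists. The median number of dexamethasone lists was 1 for sites of 1 vehicle list and 3 for sites of 3 or more. Of the 37 sites in 3 or more vehicle lists, 26 were in 3 of 3 treated GR-cell lists, 22 in at least 1 treated MR/GR-cell list and 2 in all 6 dexamethasone lists. Of all 43713 dexamethasone sites, 52.5% were in 3 of 3 GR-cell lists, 26.6% in an MR/GR-cell list and 6.90% in all 6. Of the 37 sites, 35 had a peak in the treated GR cell and 2 in treated MR/GR-cell lists only. Among all dexamethasone sites 5.17% were in MR/GR-cell lists only, so the 35 of 37 is near the share over all sites. Few of the 37 had a peak in every treated list, as among all dexamethasone sites. MR/GR-cell dexamethasone list 1, with 3713 peaks, limits that number.

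The dexamethasone peak behind the class often came from a single list. Of the 422 sites with a dexamethasone peak, 144 had it in 1 list, and 130 of these were in GR-cell dexamethasone list 1 (94 sites) or MR/GR-cell dexamethasone list 2 (36 sites), the longest treated list of each line. The other 4 lists alone accounted for 6, 5, 1 and 2 sites. Without GR-cell list 1 the sites with no dexamethasone peak numbered 274 in place of 180, and without MR/GR-cell list 2 they numbered 216. With a peak required in at least 2 dexamethasone lists, 278 sites had one and 324 did not.

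GR-cell dexamethasone lists 1, 2 and 3 held 359, 204 and 203 of the 602 sites, and MR/GR-cell dexamethasone lists 1, 2 and 3 held 26, 168 and 56. As a share of their own peaks, 0.954%, 0.660% and 0.775% lay at vehicle sites in GR-cell lists 1 to 3, and 0.700%, 1.61% and 0.841% in those of the MR/GR cell. Over all 6 lists, length did not order these shares: the MR/GR-cell list with the highest share had 10459 peaks, and GR-cell list 2, with the lowest, had 30912. Within each line the longest list had the highest share, and in the MR/GR cell the shares rose with length throughout. Among dexamethasone sites found in a single list, 1.29% of the 7217 of GR-cell list 1 and 1.98% of the 1716 of MR/GR-cell list 2 had a vehicle peak, against 0.220% of the 2273 of GR-cell list 2 and 0.367% of the 817 of GR-cell list 3. In MR/GR-cell lists 1 and 3 it was 0 of 62 and 2 of 148 (1.35%), so GR-cell list 1 stood above the other lists of its line but not above MR/GR-cell list 3. The differences between lists were not tested.

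**Figure D2:**
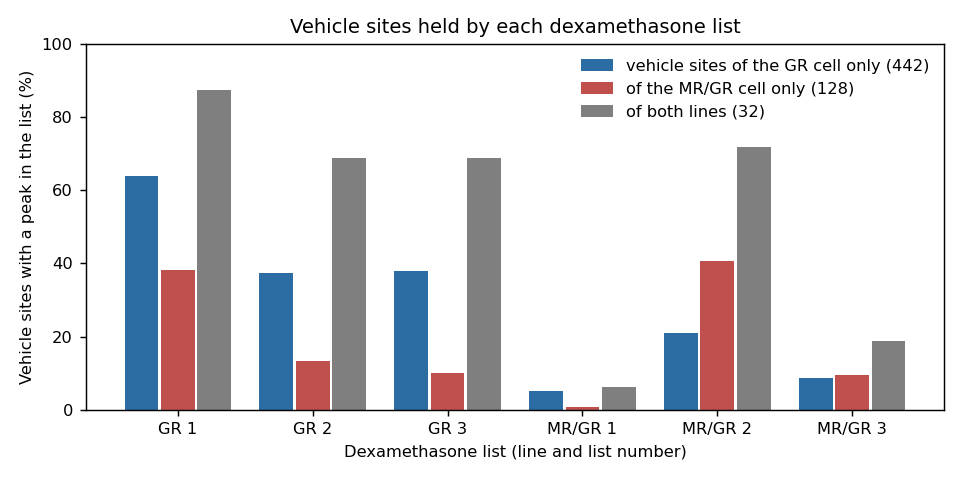
Share of vehicle sites (y axis, percent) with a peak in each of the 6 dexamethasone lists (x axis), for sites with vehicle peaks in the GR cell alone, in the MR/GR cell alone and in both lines. MR/GR-cell list 2 held 40.6% of the sites of the MR/GR cell alone, against 0.781% in list 1 and 9.38% in list 3 of the same line.

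Vehicle sites of the 2 lines were held by the treated lists in different shares. Of the 442 sites of the GR cell alone, 313 (70.8%, Wilson 95% interval 66.4 to 74.9) had a dexamethasone peak: 214 in treated GR cells alone, 16 in treated MR/GR cells alone and 83 in both. Of the 128 sites of the MR/GR cell alone, 78 (60.9%, 52.3 to 69.0) had one, with 24, 24 and 30 in the same order. Treated GR-cell lists thus held 67.2% of the former and 42.2% of the latter, and treated MR/GR-cell lists 22.4% and 42.2%. Of the 54 MR/GR-alone sites held by a treated MR/GR-cell list, 52 were in its list 2, 12 in list 3 and 1 in list 1.

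Counted by peaks, the share with any dexamethasone peak was 80.3%, 72.7% and 79.4% in GR-cell vehicle lists 1 to 3 and 74.2%, 54.5% and 70% in those of the MR/GR cell. The means were 77.5% ± 4.17 and 66.3% ± 10.4 (SD, n = 3 lists each), and MR/GR-cell list 1 lay within the range of the GR-cell lists. The order of the lines depended on the target. Against treated GR-cell lists the shares were 77.9%, 66.4% and 78.9% for GR-cell vehicle lists and 56.8%, 18.2% and 50% for MR/GR-cell ones. Against treated MR/GR-cell lists they were 29.5%, 34.5% and 22.4% for GR-cell vehicle lists and 54.5%, 54.5% and 55% for MR/GR-cell ones. In each comparison the vehicle lists of the line matching the target lay above those of the other line without overlap. By sites of 1 line alone, each treated GR-cell list held a larger share of the GR-cell sites. The treated MR/GR-cell lists differed. List 2 held 40.6% of the MR/GR-alone sites and 21.0% of the GR-alone sites. List 3 held 9.38% and 8.60%, nearly equal shares, and in list 1 the order was the other way (0.781% and 5.20%). Without MR/GR-cell dexamethasone list 2, the MR/GR-cell mean against any list was 43.6%, and without GR-cell dexamethasone list 1 the GR-cell mean was 62.4%.

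The 32 sites with vehicle peaks in both lines are in 2 or more vehicle lists by definition. Of these, 31 had a dexamethasone peak, 28 in the GR cell, 24 in the MR/GR cell and 21 in both, and the median was 4 dexamethasone lists. GR-cell dexamethasone lists held 28, 22 and 22 of them and MR/GR-cell lists 2, 23 and 6. MR/GR-cell list 2 thus held 71.9% of the sites of both lines. Sites of the GR cell alone at an equal number of vehicle lists had a close share with any dexamethasone peak. In 2 lists, 10 of 11 sites of both lines had one (90.9%, median 2 lists) against 91.4% (median 3). In 3 lists it was 11 of 11 against 15 of 15, both with a median of 3. Other values differed. A treated MR/GR-cell list held 8 of 11 against 16 of 58 in 2 lists, and 7 of 11 against 5 of 15 in 3. All 3 treated GR-cell lists held 4 of 11 against 32 of 58 in 2 lists, and 6 of 11 against 11 of 15 in 3. These differences were not tested.

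Vehicle peaks lay at 1.1199% of dexamethasone sites in 1 list (137 of 12233), 1.35% in 2 lists, 0.623% in 3, 1.503% in 4, 0.846% in 5 and 0.729% in all 6 (22 of 3017). These shares followed no order with the number of lists. By line, the share was 0.758% of the 32074 sites of the GR cell alone, 1.81% of the 2260 of the MR/GR cell alone and 1.47% of the 9379 of both. Lists were counted here over each merged dexamethasone site, not only over peaks that met the vehicle site. By that count 285 sites with a vehicle peak were in 2 or more lists and 22 in all 6, against 278 and 19 by vehicle site. Of the 422 dexamethasone sites that had a vehicle peak, 67.5% were in 2 or more dexamethasone lists (Wilson 95% interval 62.9 to 71.8), against 72.0% of all dexamethasone sites. In all 6 lists were 5.21% (3.47 to 7.77), against 6.90% of all. In 3 of 3 GR-cell lists were 36.5% (32.0 to 41.2), against 52.5% of all, and in at least 1 MR/GR-cell list 42.4% (37.8 to 47.2), against 26.6%. Sites of MR/GR-cell lists alone made up 9.72% (7.24 to 12.9), against 5.17%. These intervals cover counting error only, sites are not replicates, and none of these differences was tested. The highest shares with a vehicle peak were at sites of 1 GR-cell and 1 MR/GR-cell list (28 of 575, 4.87%) and of 2 GR-cell and 1 MR/GR-cell lists (19 of 461, 4.12%). The lowest share above 0 was at sites called in every GR-cell list but in none of the MR/GR cell (73 of 15056, 0.485%).

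Paired peak centres lay further apart at vehicle sites than elsewhere in the treated GR cell, and in 1 of 3 lists of the treated MR/GR cell. Where a vehicle peak met a dexamethasone peak of the same line, the centres lay a median of 60 bp apart in the GR cell (964 pairs) and 49 bp in the MR/GR cell (128 pairs). Between vehicle lists of a line the median offset was 54.5 bp (164 pairs), and between vehicle lists of different lines 55 bp (79 pairs). Between dexamethasone lists of the GR cell, the median was 35 to 37 bp at vehicle sites and 27 to 29 bp elsewhere. Pairs over 100 bp apart made up 14.9% to 16.4% at vehicle sites and 5.95% to 6.78% elsewhere. In the MR/GR cell the median at vehicle sites was 44, 31 and 29 bp in lists 1, 2 and 3, against 32, 31 and 30 bp elsewhere, so the medians of lists 2 and 3 were no larger. Pairs over 100 bp apart were 10.8% to 16.7% at vehicle sites there and 7.12% to 8.54% elsewhere. Overlap limits how far apart paired centres can lie, and these offsets are given without a test.

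The number of neighbouring dexamethasone peaks, which the choice of sites did not use, was lower at vehicle sites in each GR-cell list, but the difference over the 6 lists did not pass its test. In GR-cell dexamethasone list 1, peaks at vehicle sites had a mean of 0.181 other peaks of that list within 10 kb, against 0.443 for the other peaks of the list. GR-cell list 2 had means of 0.152 and 0.378, and GR-cell list 3 had 0.148 and 0.309. MR/GR-cell list 1 had 0.308 at vehicle sites and 0.175 elsewhere, list 2 had 0.137 and 0.287, and list 3 had 0.179 and 0.197. Peaks at vehicle sites thus had fewer neighbours in 5 of 6 lists and more in MR/GR-cell list 1, where 26 peaks lay at vehicle sites. The mean difference over the 6 lists was -0.11 neighbours (SE 0.0600), which missed 0.05 in the two-sided exact sign-flip permutation test (p = 0.0938, n = 6 lists, smallest possible p 0.0312). In the GR cell alone the difference was -0.216 (SE 0.0295, exact p = 0.25, n = 3 lists, the smallest possible), while for the MR/GR cell alone it was -0.0121 (SE 0.0817, exact p = 0.75, n = 3 lists). Among peaks at sites of all 3 dexamethasone lists of a line alone, the difference over the 6 lists was -0.0371 (exact p = 0.656). The lists share their vehicle sites and are not fully independent.

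**Figure D3:**
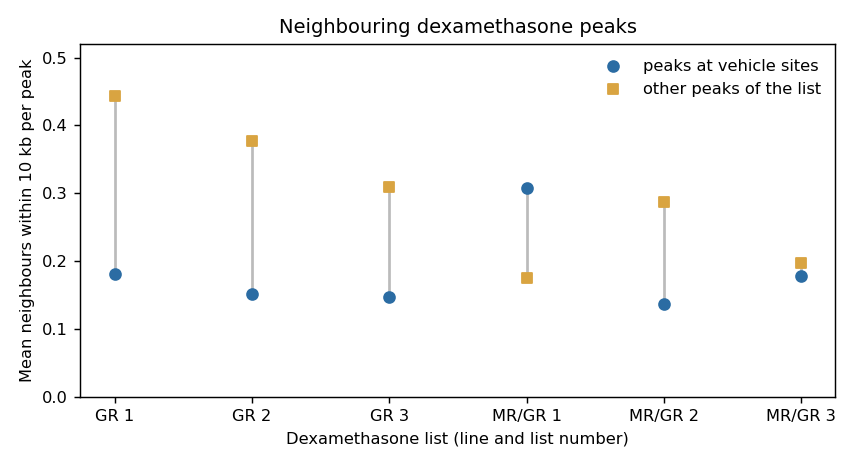
Mean number of other peaks of the same list within 10 kb (y axis) for dexamethasone peaks at vehicle sites (circles) and for the other peaks of the list (squares), in each of the 6 dexamethasone lists (x axis). Circles lie below squares in all lists but MR/GR-cell list 1, where the means are 0.308 and 0.175.

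The vehicle sites were also spread over the chromosomes in other proportions than the dexamethasone sites. Chromosome 19 carried 36 vehicle sites, 5.98% of them, against 1.95% of dexamethasone sites, a ratio of 3.06. Every vehicle list had a higher share of its peaks there (5.74%, 8.82% and 4.39% for the GR cell, then 6.82%, 18.2% and 5% for the MR/GR cell) than any dexamethasone list (1.72% to 2.06%). The last 2 of these shares rest on 2 peaks each. Chromosomes 17 (6.31% against 3.28%), 22 (3.49% against 1.85%) and 16 (5.15% against 2.93%) followed. On chromosomes 22 and 16 the MR/GR-cell vehicle lists of 11 and 40 peaks had 0% and 2.5%, no higher than the highest dexamethasone list (2.56% and 2.98%). On chromosome 17 the MR/GR-cell list of 11 peaks had none, and the other 5 vehicle lists had 6.56% to 10%, against 3.12% to 3.99% in the dexamethasone lists. Shares were lower on, among others, chromosome X (6 sites, 0.997% against 2.91%), chromosome 21 (3 sites, 0.498% against 1.14%), chromosome 8 (2.82% against 5.26%) and chromosome 4 (3.49% against 5.84%). On chromosome X, GR-cell vehicle lists had 0% to 1.26%, against 2.89% to 3.06% in GR-cell dexamethasone lists. MR/GR-cell vehicle lists 1, 2 and 3 had 1.52%, 0% and 0% there, against 1.16% to 1.50% in MR/GR-cell dexamethasone lists.

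The higher share on chromosome 19 was present in both classes. Of the vehicle sites with a dexamethasone peak 5.45% lay there (23 sites), and of those without one 7.22% (13 sites). The classes differed more on chromosome 16, with 4.03% and 7.78%, and on chromosome 10, with 4.74% (20 sites) and 1.111% (2 sites). Within a list a higher share on one chromosome lowers the others, and no chromosome was tested.

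**Figure D4:**
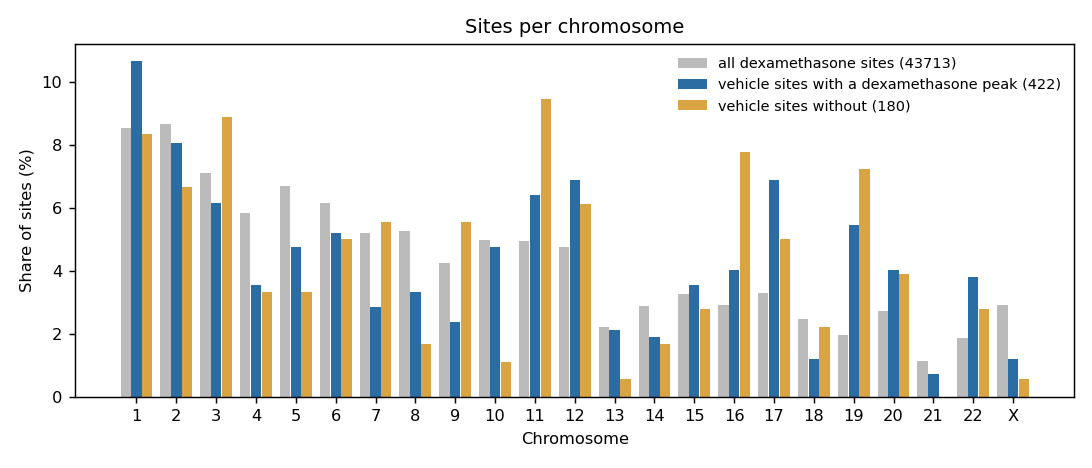
Share of sites (y axis, percent) on each chromosome (x axis) for all 43713 dexamethasone sites, the 422 vehicle sites with a dexamethasone peak and the 180 without. Chromosome 19 has 1.95%, 5.45% and 7.22% in that order, and chromosome X 2.91%, 1.18% and 0.556%.

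Most of the 180 sites without a dexamethasone peak were not near misses. Their centres lay a median of 23.1 kb from the nearest dexamethasone peak centre of any list (quartiles 6.20 and 54.0 kb). It was within 500 bp for 3 sites, within 1 kb for 10, within 10 kb for 56 and beyond 100 kb for 19. The median was 22.996 kb for the 129 sites of the GR cell alone and 23.5 kb for the 50 of the MR/GR cell alone. Of the 180 sites, 174 were in a single vehicle list.

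Sites are named by hg19 coordinates counted from 1, and a site's dexamethasone lists are those with a peak overlapping it. The site on chromosome 3 at 119395796 to 119396159 was the only one called in all 6 vehicle lists, and it was also in all 6 dexamethasone lists. Its 6 vehicle peak centres lay within 25 bp, and no other dexamethasone peak lay within 10 kb in any list. Another on chromosome 3, at 128879908 to 128880330, was in all 3 GR-cell and 2 MR/GR-cell vehicle lists and in 3 and 2 dexamethasone lists. The same counts held at chromosome 17, 72510418 to 72511223. That site was the widest at 806 bp, and its vehicle centres spread over 484 bp, so it may join neighbouring peaks.

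Sites of 5 vehicle lists also lay on chromosome 2, from 200820188 to 200820616, and on chromosome 14, from 70826226 to 70826689. Both had peaks in 3 GR-cell and 1 MR/GR-cell dexamethasone lists, the latter being list 2 at the first site and list 1 at the second. In 4 vehicle lists, 3 of the GR cell and list 1 of the MR/GR cell, were chromosome 11, 118306787 to 118307285 and 47600255 to 47600725, chromosome 12, 133405360 to 133405909, and chromosome 17, 17991004 to 17991508. All 4 were in 3 treated GR-cell lists, while 2, 1, 1 and 0 treated MR/GR-cell lists had a peak there.

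Another site had the opposite balance of lines. Chromosome 5, 171433642 to 171434047, was in all 3 MR/GR-cell vehicle lists and 1 GR-cell vehicle list, and after dexamethasone only in MR/GR-cell list 2. Chromosome 20, 36661918 to 36662223, was in all 3 MR/GR-cell vehicle lists, in no GR-cell list of either treatment, and in the same single dexamethasone list. Its 3 vehicle centres lay within 18 bp. Both sites were thus called in every MR/GR-cell vehicle list, including the one of 11 peaks, and in 1 of 3 treated lists of that line, although the treated lists were far longer.

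All 24 sites in 3 of 3 GR-cell vehicle lists had a peak in the treated GR cell, 20 of them in all 3 treated lists and 13 also in a treated MR/GR-cell list. Of all dexamethasone sites, 52.5% were in 3 of 3 GR-cell lists, 26.6% in an MR/GR-cell list and 5.17% in MR/GR-cell lists only. A peak in the treated GR cell is thus common to nearly all dexamethasone sites. The leading site of the 24 without an MR/GR-cell vehicle peak was chromosome 19, 41731815 to 41732263, which was in all 6 dexamethasone lists. Of the 20 sites in at least 2 MR/GR-cell vehicle lists, 19 had a peak in the treated MR/GR cell and 14 in the treated GR cell. The exception was chromosome 20, 62496383 to 62496812, in 2 MR/GR-cell and 1 GR-cell vehicle lists, whose one dexamethasone peak was in GR-cell list 1. At chromosome 19, 4791382 to 4791884, with 2 MR/GR-cell and 1 GR-cell vehicle lists, all 3 GR-cell and 2 MR/GR-cell dexamethasone lists had a peak. Chromosome 7, 4681441 to 4681846, had the same vehicle counts and was in 2 and 1.

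Among other sites of both lines, 3 vehicle lists and at least 4 dexamethasone lists were reached at chromosome 1, 211432275 to 211432648, with 5 dexamethasone lists. Those with 4 were on chromosome 10 (12237888 to 12238318), chromosome 16 (89787162 to 89787842) and chromosome 17 (57287087 to 57287512). All were in 2 GR-cell vehicle lists and MR/GR-cell vehicle list 1, and in 3 of 3 treated GR-cell lists. Fewer dexamethasone lists held chromosome 5, 125936429 to 125936865 (3 lists), chromosome 19, 19302878 to 19303295 (3), chromosome 10, 114206566 to 114207055 (2), and chromosome 17, 36981420 to 36981797 (1), all with the same vehicle counts. Equal calling without hormone therefore went with anything from 1 to 5 dexamethasone lists.

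The 6 sites in 2 vehicle lists and in no dexamethasone list were each named. Chromosome 4, 152682007 to 152682372, chromosome 11, 34126954 to 34127315, and chromosome 12, 123574290 to 123574700, were in GR-cell vehicle lists 2 and 3 and lay 16.2, 114.5 and 36.7 kb from the nearest dexamethasone peak. Chromosome 11, 66206185 to 66206536, was in GR-cell lists 1 and 2, with the nearest dexamethasone peak 1.54 kb away. Chromosome 17, 74481037 to 74481441, was in GR-cell lists 1 and 3, and the nearest dexamethasone peak centre was 0.671 kb away. With peaks at most 500 bp apart also joined, this site was in 5 dexamethasone lists and left the class. Chromosome 19, 42746949 to 42747300, was the only one of both lines, with the nearest dexamethasone peak at 1.78 kb. Of these 6 sites 3 thus had a dexamethasone peak within 2 kb and 3 had none within 10 kb.

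**Figure D5:**
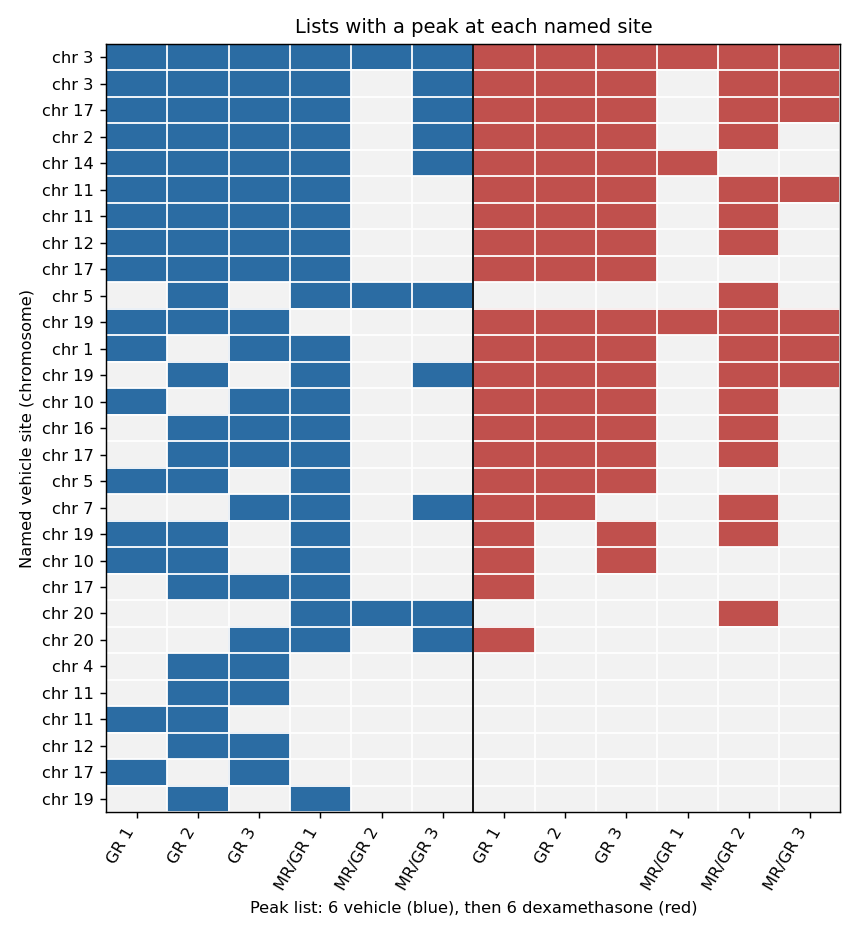
Each row is a named vehicle site, labelled by chromosome and ordered by number of vehicle lists and then of dexamethasone lists, and each column is a peak list. Filled cells mark a peak, blue in vehicle lists and red in dexamethasone lists. MR/GR-cell vehicle list 2, with 11 peaks in all, and MR/GR-cell dexamethasone list 1 hold few of the sites, and the 6 rows at the bottom have no dexamethasone peak.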

How the data were processed

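GR ChIP-seq peak lists of 4 immunoprecipitation samples were used, 3 lists each. Per the submitters' processing notes, Trim Galore 0.4, Bowtie, SAMtools 1.3.1, Picard 1.115, HOMER 4.8.3 and the hg19 build were used; the sources used here do not give their roles, settings or the calling threshold. Files the authors deposited hold chromosome, start and end per peak, with no score, and the list names mark each list as set against input, so peak strength was not analysed here. List numbers come from the deposited lists.

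Peaks were linked when they overlapped by at least 1 bp, and vehicle sites were chains of linked vehicle peaks (bedtools 2.31.1 gave the same 602). Neighbours were other peaks of the same list with centres within 10 kb. Their means were compared within each dexamethasone list by a two-sided exact sign-flip permutation test over lists. Versions were pandas 2.3.3, numpy 2.4.6 and SciPy 1.17.1 under Python 3.11.15, with figures from matplotlib 3.10.9. On simulated data for the vehicle sites and their classes, 100% of 600 sites and of their list counts were recovered. Simulated peaks of a site always overlapped and sites lay far apart, so this checks the code and not the merging of offset or crowded peaks.

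Sites named are those in 4 or more vehicle lists, up to 20 of both lines, up to 10 in 2 or more vehicle lists without a dexamethasone peak, and up to 10 each in 3 GR-cell or in 2 or more MR/GR-cell vehicle lists, ranked by vehicle lists, dexamethasone lists and position. Members, classes and rules were chosen with earlier results of these data known. Planned motif, gene and promoter counts were not run, since no hg19 sequence or annotation was used here. Alternatives were other overlap criteria, targets, radii and site subsets, the main chromosomes alone, a block by list number, and each list left out in turn.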

Additional observations from a re-analysis of the deposited data

How the results depend on the processing

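Of 199 alternatives for the main counts, shares and differences, 175 kept their value (counts within a fixed ratio, shares within their spread over lists, the test on its side of 0.05). Some of the 175 could not move, so that number does not measure stability. No peak was over 1000 bp wide, so leaving out wider peaks repeated the main values. Leaving out a dexamethasone list cannot change the number of vehicle sites or of those in 2 or more vehicle lists. Leaving out a vehicle list of 1 line cannot change the dexamethasone share or the within-line share of the other. With peak centres at most 100 bp apart, vehicle peaks with a dexamethasone peak were 66.1% (GR cell) and 54.1% (MR/GR cell). With at least 2 dexamethasone lists required they were 57.9% and 35.1%, a difference of -22.8 points, and 278 sites had such peaks and 324 did not. With treated lists of the same line as target the MR/GR-cell share was 54.7% and the difference -19.7 points; with GR-cell lists 41.7% and -32.7 points; with MR/GR-cell lists 28.8% and 54.7%, where the difference reversed to 25.9 points by the change of target. Leaving out 1 list gave 435 to 602 sites, 66 to 116 in 2 or more vehicle lists, 314 to 422 with and 121 to 274 without a dexamethasone peak. It gave 62.4% to 79.9% and 43.6% to 72.1% for the dexamethasone shares of the lines and -31.5 to -3.54 points for their difference, the lowest without MR/GR-cell dexamethasone list 2. Peaks shared within a line ranged over 21.0% to 37.7% (GR cell) and 14.8% to 32.6% (MR/GR cell), and between lines over 3.52% to 11.4% and 14.7% to 35.2%. The neighbour difference kept its sign throughout (-0.164 to -0.0803 with 1 list left out), and exact p ran from 0.0625 to 0.656. Without 1 dexamethasone list, 5 lists allow no p under 0.0625, so those alternatives could not pass 0.05 and say nothing about the call. Without MR/GR-cell dexamethasone list 1 the p was at that minimum. A replicate block by list number gives the same mean difference between lines by arithmetic (-11.2 points), so it checks nothing. The labels also do not pair the lists. Of 87 alternatives for 29 named sites, chosen after seeing the data, 83 kept their number of dexamethasone lists; chromosome 17, 74481037, had 5 in place of 0 once peaks at most 500 bp apart were joined. Read depth and peak strength are unknown, so absence from a list sets no limit on binding.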

Other observations

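Few neighbouring vehicle sites lay within 10 kb of one another. Of 577 neighbouring pairs of vehicle sites on the same chromosome, 4 had centres within 10 kb (0.693%). Among the far more numerous dexamethasone sites it was 9913 of 43671 neighbouring pairs (22.7%). More numerous sites lie closer together by number alone, so these shares do not show that vehicle sites are isolated. The 602 sites fell into 467 windows of 1 Mb, 25 windows held 3 or more, and the highest number in a window was 5.

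Chromosome 6 differed between the vehicle lists of the lines. It carried 8, 11 and 21 peaks of GR-cell vehicle lists 1, 2 and 3 (6.56%, 4.62% and 9.21%) and 1, 0 and 0 peaks of the MR/GR-cell lists (0.758%, 0% and 0%). After dexamethasone GR-cell lists had 6.17% to 6.27% of their peaks there and MR/GR-cell lists 6.19% to 6.44%. By sites, 30 vehicle sites of chromosome 6 belonged to the GR cell alone, none to the MR/GR cell alone and 1 to both. The chromosome was singled out after its values were seen, and the difference was not tested.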
